A study of Mus musculus with 5 samples.

Results

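The miR-181 family was followed across back skin of aged mice before and after wounding. Its members were taken by name as mmu-miR-181a-5p, mmu-miR-181b-5p, mmu-miR-181c-5p and mmu-miR-181d-5p, written below without the species prefix, which are 4 of the 1900 mouse miRNAs on the array, each printed on 2 spots. One single-colour array (Cy3) was analysed for each of 5 conditions, all of them total RNA from back skin of female mice. Aged skin came from 2-year-old animals, unwounded (D0) or 3, 5 and 7 days after a full-thickness punch wound (D3, D5 and D7), and young skin came from unwounded 8-week-old animals (young D0), with hair follicles in telogen, their resting phase, in both ages. The strain and the number of animals behind each array were not given in the sources used here, and wounds of young mice were not analysed here. Because each condition has 1 array, no difference between conditions could be tested. Differences are instead set against the spread of repeat spots, which describes the array and not the animals.

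A mature miRNA guides a silencing complex to messenger RNAs that pair with its seed, which is bases 2 to 8 from its 5′ end, so miRNAs that share a seed form a family with largely shared targets. The miR-181 family is best known from the immune system, where miR-181a promotes B lymphocyte differentiation and tunes the sensitivity of the T cell receptor in the thymus. It has also been described in muscle differentiation, in vascular inflammation, where miR-181b acts in endothelial cells, and in keratinocytes. Each precursor hairpin gives a -5p arm, which is the abundant strand in this family, and a -3p arm.

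The sequences of the members are shown because they differ at few bases outside an identical seed, which is in capitals. They are the targets named in the array files, written 5′ to 3′.
miR-181a-5p: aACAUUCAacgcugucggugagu
miR-181b-5p: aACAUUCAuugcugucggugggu
miR-181c-5p: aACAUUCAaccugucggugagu
miR-181d-5p: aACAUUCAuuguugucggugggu
Of the 1900 miRNAs on the array, only these 4 have ACAUUCA at bases 2 to 8. Counted from 1 at the 5′ end, miR-181b and miR-181d differ at 1 base, C12U. miR-181c equals miR-181a without base 11. miR-181a and miR-181b differ at 3 bases (A9U, C10U and A21G), and miR-181a and miR-181d at 4 (A9U, C10U, C12U and A21G). By sequence the members therefore fall into a pair of miR-181a with miR-181c and a pair of miR-181b with miR-181d. Members this alike may bind each other's probes, and how far they did so on these arrays was not tested. The targets of miR-181a, miR-181c and miR-181d are identical to the RefSeq mature sequences, and that of miR-181b is the first 23 of the 24 bases of the RefSeq sequence.

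The genomic pairing is another one. In RefSeq on GRCm38.p6, miR-181a-5p is encoded at chr1:137966468-137966490 (plus strand, Mir181a-1) and at chr2:38852741-38852763 (plus strand, Mir181a-2). miR-181b-5p lies close downstream of it in both places, at chr1:137966650-137966673 (Mir181b-1) and chr2:38853845-38853868 (Mir181b-2). miR-181c-5p and miR-181d-5p are encoded on the minus strand of chromosome 8, at chr8:84178924-84178945 and chr8:84178759-84178781. The precursors of a pair are separated by 97 bases on chromosome 1, 1019 on chromosome 2 and 85 on chromosome 8. Both precursors on chromosome 2 lie within the annotated genes Nr6a1, a nuclear receptor gene, and Nr6a1os, and the other 4 precursors overlap no other annotated gene. As the mature miR-181a and miR-181b sequences are the same from both of their loci, the array cannot tell the loci apart. The Mir181a-1 hairpin is shown to place the arms, with the -5p arm (bases 14 to 36) and the -3p arm (bases 54 to 75) in capitals.
Mir181a-1: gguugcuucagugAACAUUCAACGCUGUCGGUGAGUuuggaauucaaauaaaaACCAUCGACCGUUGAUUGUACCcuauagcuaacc

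All 4 members were detected on all 5 arrays. Detection was judged from the scanned intensity before normalization. It required a probe's mean to exceed the 95th percentile over the array's 4 empty spots, a level between 58.3 at aged D3 and 107 at young D0. The arrays differed in how many miRNAs this took in, from 589 at aged D0 to 1768 at aged D3. A stricter group, called bright here, was above 2 times that level and held between 210 miRNAs (aged D0) and 342 (aged D3), of which 199 were bright on all 5 arrays. miR-181a, miR-181b and miR-181c were bright on every array. miR-181d was bright at aged D7 and young D0 only, and at aged D0, D3 and D5 it lay at 1.88, 1.67 and 1.62 times the detection level.

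mmu-miR-181a-5p had a mean scanned intensity of 3821 at young D0, 1817 at aged D0, 1170 at aged D3, 1149 at aged D5 and 1992 at aged D7. mmu-miR-181b-5p had 751, 306, 152, 175 and 412 in the same order, and mmu-miR-181c-5p had 1008, 429, 301, 394 and 472. mmu-miR-181d-5p had 569, 198, 97.6, 99.1 and 286. Before normalization, all members were thus brightest in young skin, and within aged skin dimmer at D3 and D5 than at D0 and D7. For miR-181b the 2 spots read 279 and 334 at aged D0 against 144 and 159 at D3, so they did not overlap. The arrays as a whole moved as well. The median scanned ratio of miRNAs bright on both arrays was 0.809 for D3 over D0, 0.740 for D5 over D0, 1.26 for D7 over D0 and 0.460 for aged over young D0, and the values below are normalized for this reason. Intensities of different probes depend on how well each probe binds, so the level of one member is not compared with that of another.

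**Figure D1:**
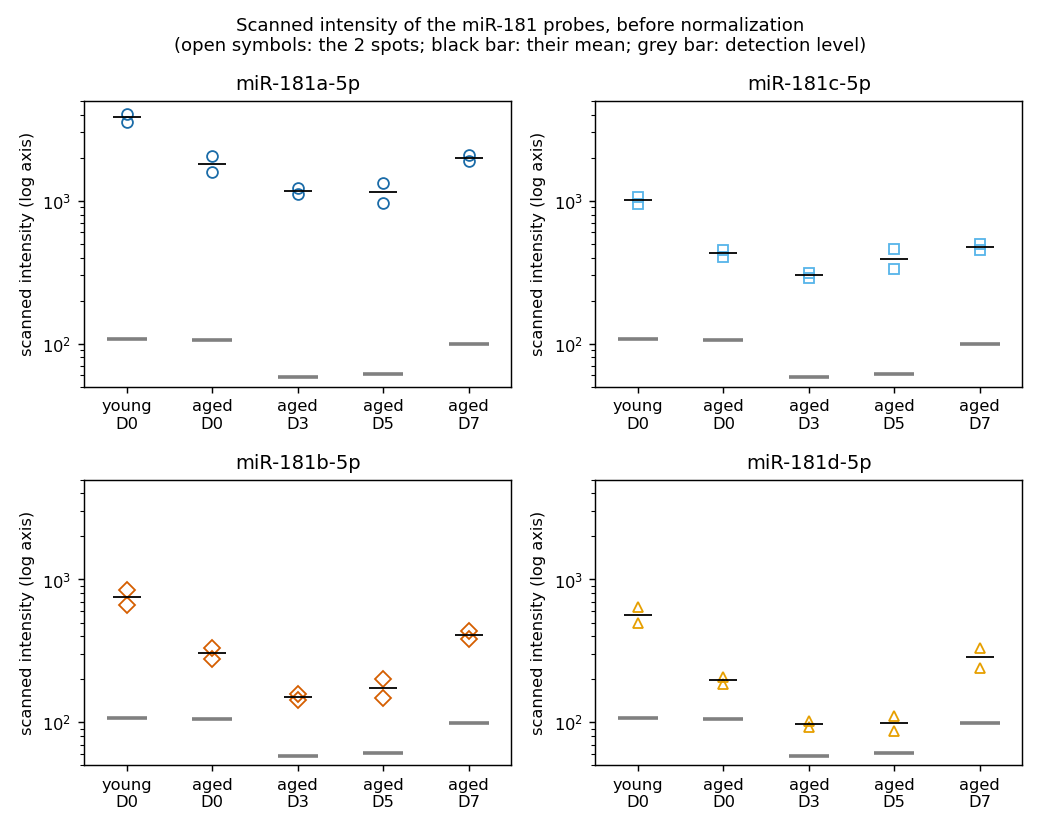
Scanned intensity (log axis, before normalization) of the 4 miR-181 -5p probes on the young D0 array and the aged D0, D3, D5 and D7 arrays. Open symbols are the 2 spots of a probe, black bars their mean and grey bars the detection level of the array; every member was brightest at young D0 and lay above the detection level on all arrays, with miR-181d closest to it (1.62 times at aged D5).

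After background correction and quantile normalization over the 5 arrays, the order of the conditions differed between members. Normalized miR-181a was highest at aged D0 (2039), followed by aged D5 (1822), aged D7 (1769), young D0 (1761) and aged D3 (1554). No neighbours in this order differed by more than 2 spot SD. Spot SD here is that of the mean of the 2 spots, estimated from how far the repeat spots disagree. miR-181c was ordered aged D0 (600), aged D5 (567), young D0 (493), aged D7 (402) and aged D3 (353), again with no neighbours apart. For miR-181b the order was aged D0 (419), young D0 (380), aged D7 (346), aged D5 (244) and aged D3 (186). The steps from D7 to D5 (1.42-fold) and from D5 to D3 (1.32-fold) were beyond the spot spread, and the smaller ones among the first 3 were not. miR-181d was ordered young D0 (294), aged D0 (250), aged D7 (234), aged D5 (136) and aged D3 (118), with only the 1.72-fold step from D7 to D5 beyond the spot spread. All members had their lowest normalized value at aged D3.

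The first comparison asked how the family changed 3 days after wounding, a time of inflammation and early re-epithelialisation. All 4 members were lower at aged D3 than at aged D0, and the difference was larger for miR-181b and miR-181d than for miR-181a. The D3/D0 ratio of miR-181b was 0.444 (0.474 and 0.415 from the 2 spots) and that of miR-181d was 0.473 (0.491 and 0.455). The ratio of miR-181c was 0.589 (0.587 and 0.591), and that of miR-181a was 0.762 (0.808 and 0.719). Each of the 4 log2 ratios was larger in size than 2 spot SD (SD 0.18 on the log2 scale), although miR-181a exceeded it only narrowly. The spot SD is drawn from miRNAs bright on either array, and miR-181d was not bright at aged D0, D3 or D5. With the 2-fold threshold, 2 of the 4 members were lower and 0 were higher. Of the 1772 miRNAs detected on either array, 2.65% were at least 2-fold lower and 3.44% at least 2-fold higher, and among the 345 miRNAs bright on either array these shares were 12.8% and 17.7%.

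Bright miRNAs as a whole were spread around a ratio of 1 at D3. Over the 345 miRNAs bright on either array the median ratio was 0.967, with 51.6% of them below 1. It was 0.781 over the 207 bright on both arrays and 0.725 over the 114 bright on either array with a GC content of 40 to 50%, the range that holds the 4 members, whose own median was 0.528. Expressed relative to the median of miRNAs bright on both arrays, miR-181a stood at 0.976, miR-181c at 0.754, miR-181d at 0.605 and miR-181b at 0.568. Among the 345 bright miRNAs, 35 had a lower D3/D0 ratio than miR-181b, 42 than miR-181d, 60 than miR-181c and 112 than miR-181a. miR-181a was thus close to the median of miRNAs bright on both arrays, whereas miR-181b and miR-181d were in the lower part of the bright miRNAs.

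At D5 miR-181b and miR-181d were again the lowest, and all 4 ratios were nearer to 1 than at D3. miR-181d had a D5/D0 ratio of 0.543 (0.519 and 0.567) and miR-181b of 0.583 (0.564 and 0.604), both beyond 2 spot SD (SD 0.15 on the log2 scale). miR-181a, at 0.894 (0.861 and 0.928), was within the spot spread. miR-181c was at 0.945, but its spots disagreed in direction, at 0.785 and 1.14. None of the members reached a 2-fold difference at D5, where 2.41% of the 1079 detected miRNAs were at least 2-fold lower and 2.87% at least 2-fold higher. Among the 296 miRNAs bright on either array these shares were 8.45% and 10.5%. The median of miRNAs bright on both arrays was 0.932, and that of the 296 bright on either array was 1.065. Relative to the former, miR-181d stood at 0.583, miR-181b at 0.626, miR-181a at 0.959 and miR-181c at 1.01. From D3 to D5 normalized miR-181c and miR-181b were 1.60-fold and 1.32-fold higher, beyond the spot spread, and miR-181a (1.17-fold) and miR-181d (1.15-fold) were within it.

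By D7 the 4 ratios to D0 had come closer together. miR-181d was at 0.936 (0.846 and 1.03), miR-181a at 0.868 (0.901 and 0.836) and miR-181b at 0.826 (0.859 and 0.795), all within 2 spot SD (SD 0.27 on the log2 scale). Only miR-181c, at 0.670 (0.663 and 0.677), lay beyond it. From D5 to D7 normalized miR-181d was 1.72-fold and miR-181b 1.42-fold higher, whereas miR-181c was at 0.709 of its D5 value, and all 3 steps were beyond the spot spread. No member was 2-fold different at D7, where 1.79% of the 1565 detected miRNAs were at least 2-fold lower and 2.56% at least 2-fold higher. Among the 309 miRNAs bright on either array these shares were 8.09% and 12.9%. The direction of the D7/D0 ratios depended on the scaling. Without normalization, or with scaling to the array median, the spike-in controls or the 5S ribosomal RNA probes, all 4 members were above D0, with ratios from 1.06 to 1.59.

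**Figure D2:**
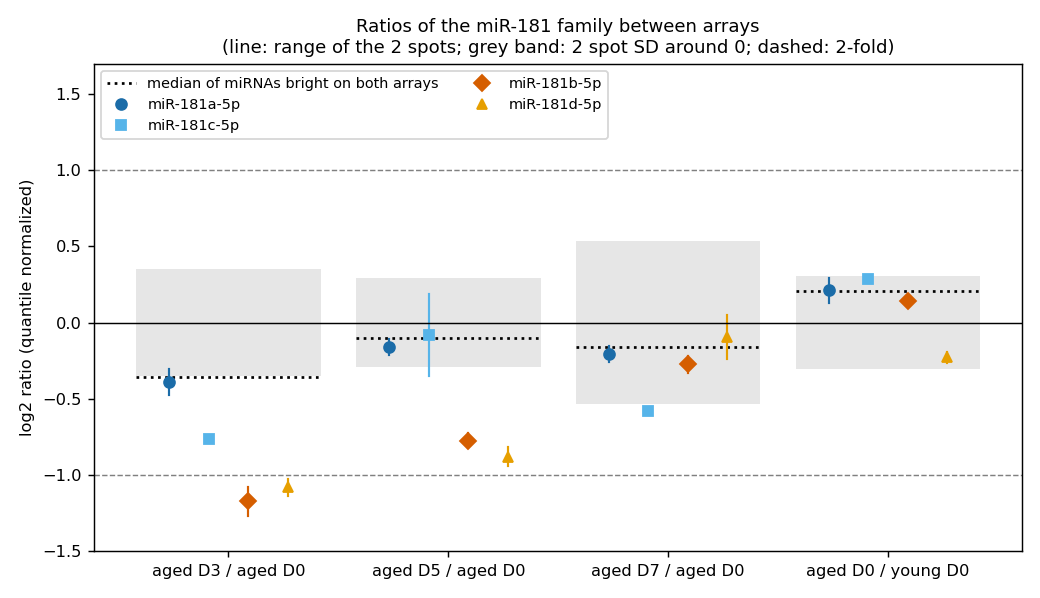
Log2 ratios of the 4 members after quantile normalization, with aged D0 as denominator for D3, D5 and D7, and young D0 as denominator for aged D0. Symbols are the mean of the 2 spots, vertical lines join the single spots, grey bands span 2 spot SD around 0 and dotted lines give the median of miRNAs bright on both arrays; miR-181b and miR-181d lie well under the dotted line at D3 and D5 and near it at D7.

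Age was compared in unwounded skin. The aged over young ratio was 1.22 for miR-181c (1.23 and 1.21 from the 2 spots), 1.16 for miR-181a (1.10 and 1.22) and 1.10 for miR-181b (1.10 and 1.11). miR-181d had a ratio below 1, at 0.853 (0.876 and 0.831). None of them was beyond 2 spot SD (SD 0.15 on the log2 scale) or 2-fold different, where 6.03% of the 779 detected miRNAs were at least 2-fold lower and 2.31% at least 2-fold higher in aged skin. Among the 339 miRNAs bright on either array these shares were 13.6% and 4.72%. The median of miRNAs bright on both arrays was 1.16, and that of the 339 bright on either array was 1.035. Relative to the former, miR-181b was at 0.955, miR-181c at 1.05 and miR-181d at 0.738, with miR-181a at the median. miR-181d was below 1 in 14 of the 15 alternatives and at 1.19 with scaling to the 75th percentile. Those 14 include no normalization and scaling to the array median, the spike-in controls or the 5S probes, where all members were below 1. The direction with age thus depended on the scaling for every member. The young array was brighter throughout, and without normalization the members were at 0.353 to 0.473 of their young values.

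**Figure D3:**
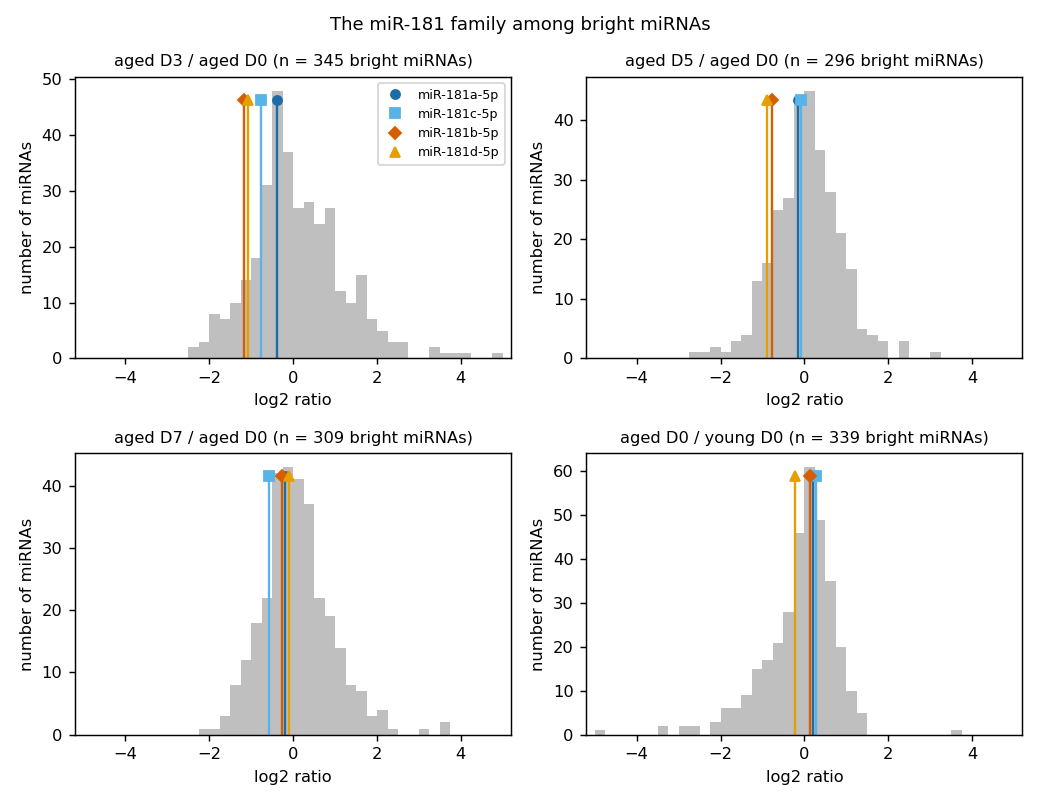
Histograms of log2 ratios of the miRNAs bright on either array (345, 296, 309 and 339 in the 4 comparisons), with the 4 members as coloured lines and symbols; miR-181d is included at D3 and D5 although it was not bright on those arrays. miR-181b and miR-181d sit in the lower part at D3 and D5 and inside the main peak at D7, and miR-181a lies within the main peak in all 4 comparisons.

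Members were next compared with each other, as the ratio of one over the ratio of the other in the same comparison, which cancels any factor common to an array. At D3, the D3/D0 ratio of miR-181a was 1.72 times that of miR-181b (1.71 and 1.73 from the 2 spots) and 1.61 times that of miR-181d, both beyond 2 spot SD. The other 4 of the 6 pairs were within it. At D5, miR-181a was 1.53 times miR-181b and 1.65 times miR-181d. miR-181c was 1.74 times miR-181d, and miR-181b was at 0.618 of miR-181c, so all 4 pairs across the sequence groups were apart. At D7 none of the 6 pairs was. The spot SD of these contrasts was wider there, at 0.38 on the log2 scale against 0.21 at D5. The widest contrast at D7, miR-181c at 0.716 of miR-181d, was below 1 in all 15 alternatives. In the age comparison miR-181d was apart from miR-181a (1.36) and miR-181c (1.43). Within the sequence groups, miR-181b over miR-181d stayed between 0.883 and 1.29 and miR-181a over miR-181c between 0.946 and 1.295 over the 4 comparisons, never beyond 2 spot SD. The genomic pairs differed more at D5, where miR-181a was 1.53 times miR-181b and miR-181c 1.74 times miR-181d. The size of these contrasts moved with the normalization. Without it the D3 contrast of miR-181a over miR-181b was 1.296 and the D5 contrast 1.07, and in the authors' processed table they were 2.80 and 1.96. Without normalization miR-181a over miR-181c was 0.682 at D5, further from 1 than miR-181a over miR-181b. The closer likeness within the sequence groups at D5 therefore did not hold in that setting. Nor did it hold in any setting that only scales each array as a whole, by its own intensities or by control probes. Such a scaling cancels in these contrasts and leaves them as they are without normalization.

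The likeness of whole profiles was measured as the root mean square difference between log2 values over the 5 arrays, each miRNA centred on its own mean. It was smallest between miR-181b and miR-181d (0.16), followed by miR-181a and miR-181c (0.19), and largest between miR-181c and miR-181d (0.50). miR-181a and miR-181b, which share both of their loci, were 0.35 apart. These distances were taken from the quantile normalized values only, and the contrasts between members above moved with the normalization. Whether the order of the distances holds in other settings was not tested. Other miRNAs were closer still to each member. Set against the other 198 miRNAs bright on all 5 arrays, a group that does not include miR-181d, miR-181d came at place 9 in likeness to miR-181b and miR-181c at place 22 in likeness to miR-181a. The miRNAs closest to miR-181a were miR-23a-3p (0.08), miR-23b-3p (0.08) and miR-425-5p (0.10), and those closest to miR-181c were miR-669c-5p (0.09), miR-669n (0.11) and miR-3102-5p.2-5p (0.15). miR-30c-5p was closest to both miR-181b (0.07) and miR-181d (0.13), with ratios to aged D0 of 0.437, 0.521 and 0.851 at D3, D5 and D7. miR-99a-5p (0.10) and miR-28c (0.12) came next for miR-181b, and miR-10b-5p (0.14) and miR-99a-5p (0.16) for miR-181d. With only 5 arrays many miRNAs look alike, and these distances are a description.

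**Figure D4:**
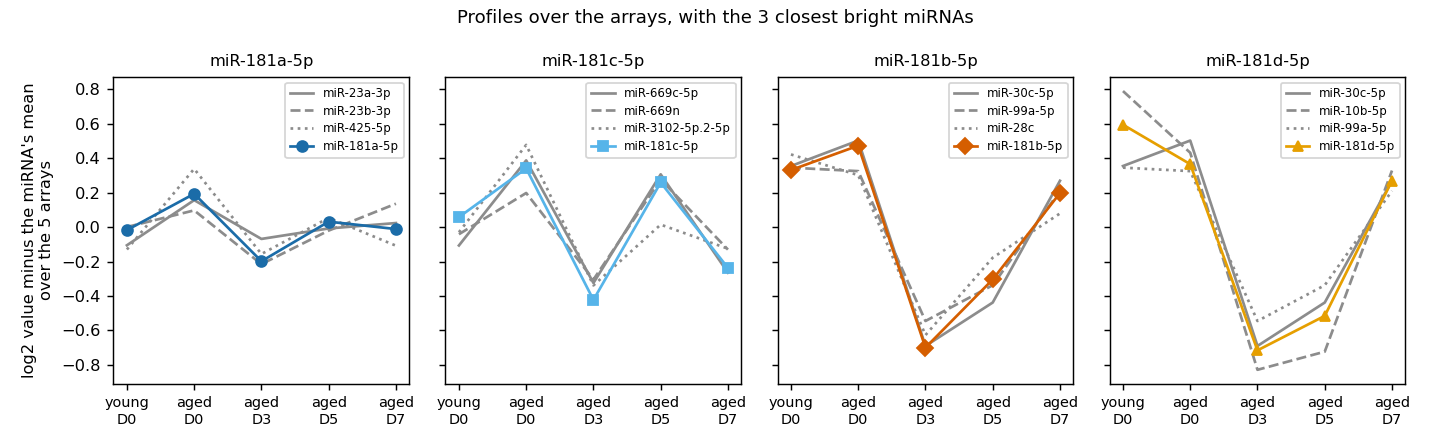
Log2 values of each member (coloured) and its 3 closest bright miRNAs (grey), centred on the mean of each miRNA over the young D0 and aged D0, D3, D5 and D7 arrays. miR-181a varies least, miR-181c is lower at D3 and D7 than at D5, and miR-181b and miR-181d have their low points at D3 and D5.

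The -3p arms of the 6 precursors were near the background. None was bright on any array, 0 of 6 were detected at aged D0 and D5, 1 at young D0, 5 at aged D7 and 6 at aged D3, the array on which 1768 of 1900 miRNAs passed the detection level. The brightest was miR-181a-1-3p, scanned at 157 at aged D7 and 149 at young D0, which is 1.59 and 1.39 times the detection level, and not detected at aged D0 or D5. Its normalized value at aged D7 was at least 1.33-fold higher than at aged D0, a bound set by the lowest detected value at D0. Of the other 5 arms, only miR-181c-3p gave a bound above 1, at least 1.10-fold higher at aged D7 than at aged D0. Both bounds were within 2 spot SD for D7 over D0, which corresponds to 1.45-fold. The array target of miR-181a-2-3p differs from its RefSeq sequence, and that of miR-181b-1-3p is the first 19 of 21 bases.

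Skin holds many cell types, and wounding changes which of them are in the sample. Fewer cells of a type and less RNA per cell cannot be told apart in such bulk samples. Epithelial miRNAs that mark skin were among the brightly scanned ones at aged D0, with miR-203-3p at 11450 and miR-205-5p at 19980. At D3, when miR-181b and miR-181d were lowest, all 4 skeletal muscle miRNAs were at least 2-fold lower (median ratio 0.294, summed scanned intensity 32810 at D0 and 6780 at D3), and so were 5 of 7 epithelial miRNAs (median 0.428, sums 38490 and 16240). One epithelial miRNA, miR-200c-3p, was 2.10-fold higher. The median of the 5 mesenchymal miRNAs was 0.657 (sums 17520 and 7772, with 2 at least 2-fold lower), and miR-126a-3p, the endothelial miRNA, was at 0.714. Of 3 erythroid miRNAs, 1 was at least 2-fold lower (median 0.601). Most leukocyte miRNAs went the other way, with 3 of 6 at least 2-fold higher (median 2.32, sums 2710 and 4900). The myeloid miR-223-3p led at 15.3-fold (scanned at 197.5 and 2804), whereas miR-146a-5p (0.536) and miR-150-5p (0.743) were lower. The part of these cell types in the miR-181 values was not tested.

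At D5 and D7 the same lists stood as follows. The median of the muscle list was 0.512 and 0.516, of the epithelial list 0.536 and 0.571, of the mesenchymal list 1.14 and 1.38 and of the leukocyte list 1.78 and 3.12. The endothelial miR-126a-3p was at 1.17 and 1.02. The median of the 2 erythroid miRNAs detected in each comparison was 0.646 and 0.3195. The summed scanned intensity from D5 to D7 went from 17340 to 27480 for the epithelial list and from 7225 to 15450 for the muscle list. These sums are not normalized, and the D7 array was brighter as a whole. The median scanned ratio of D7 over D5 was 1.56 for miRNAs bright on both arrays. Single miRNAs of the epithelial and muscle lists moved in both directions from D5 to D7 in their ratios to D0. Lower at D7 were miR-205-5p (0.620 after 1.002), miR-200c-3p (0.564 after 0.779), miR-133a-3p (0.458 after 0.520) and miR-133b-3p (0.499 after 0.521). The others on these lists were higher at D7, such as miR-200a-3p (0.571 after 0.242) and miR-1a-3p (0.534 after 0.170). Between the same days miR-181b and miR-181d were higher at D7, and the part of these cell types in that was not tested. In aged over young skin the leukocyte list had a median of 0.451, with 3 of 6 at least 2-fold lower, and the epithelial list 1.45. The 2 erythroid miRNAs detected there were at least 2-fold higher (median 2.13), and the mesenchymal and muscle lists had medians of 1.05 and 0.966. The part of these lists in the age values was likewise not tested.

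Other miRNAs known for lymphoid or myeloid development moved in both directions. Of 12 such miRNAs, 6 of which also stand in other lists named here, 4 were at least 2-fold higher and 1 lower at D3, with a median ratio of 0.922. At D5 it was 4 and 0 (median 1.31), at D7 5 and 1 (median 1.07), and in aged over young skin 1 and 3 (median 0.924). Those highest at D3 were miR-223-3p, miR-142a-5p (6.11-fold) and miR-21a-5p (5.70-fold), and miR-34a-5p was the one 2-fold lower (0.439). The members, with a median of 0.528 at D3 and 0.722 at D5, were below the list median on both days.

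The D3 and D5 ratios of miR-181a, miR-181b and miR-181d to D0 stayed below 1 under every way of processing tried. Over the 15 alternatives the D3/D0 ratio ranged from 0.318 to 0.695 for miR-181b, from 0.230 to 0.694 for miR-181d, from 0.458 to 0.979 for miR-181c and from 0.422 to 0.976 for miR-181a, in all cases below 1. The D5/D0 ratio ranged from 0.447 to 0.805 for miR-181b and from 0.314 to 0.733 for miR-181d. For miR-181a, whose reported ratio at D5 was within the spot spread, it ranged from 0.476 to 0.959. The D5/D0 ratio of miR-181c was below 1 in 11 of 15 alternatives. The 2-fold call at D3 depended on the processing. Without normalization miR-181b and miR-181d just missed it, at 0.5014 and 0.5007, and with scaling to the array median they were at 0.695 and 0.694.

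**Figure D5:**
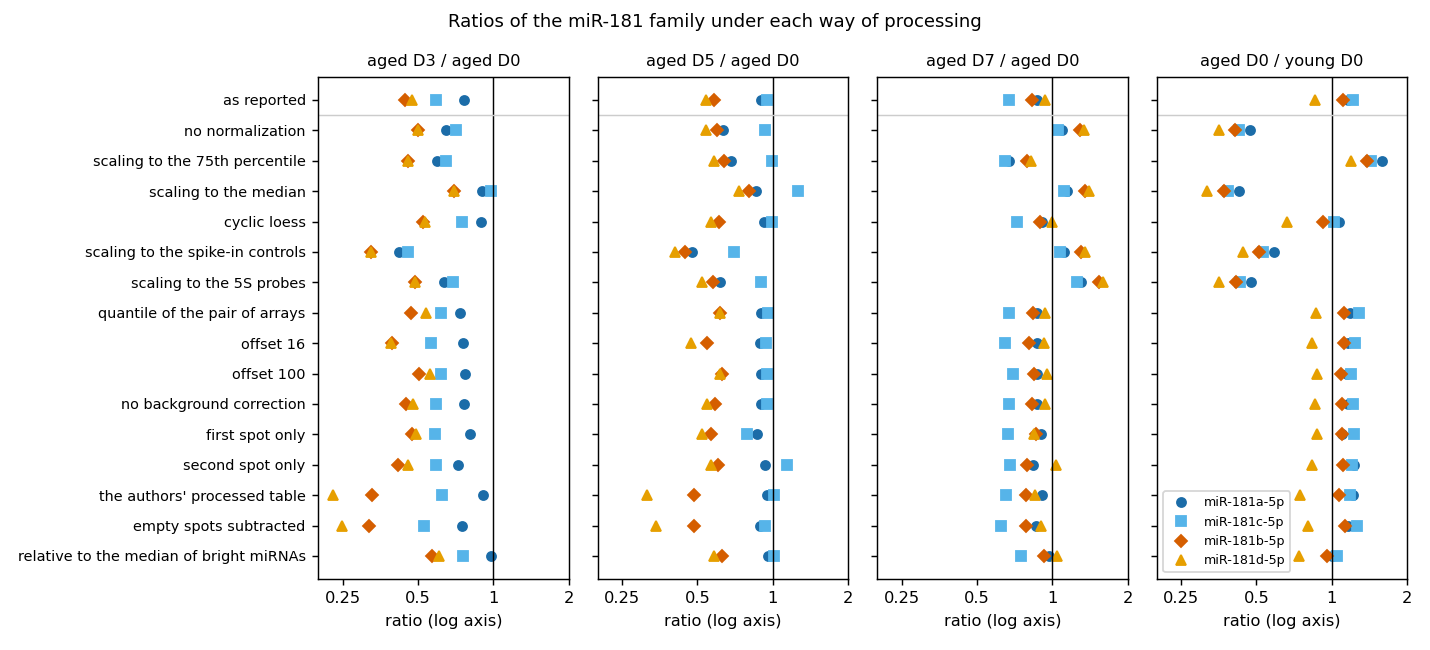
Ratios of the 4 members (log axis) as reported in the top line and under each of 15 other ways of processing, for the 4 comparisons. At D3 all symbols lie below 1, and at D7 and for aged over young D0 they move across 1 with the scaling.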

How the data were processed

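The authors deposited the scanned median intensity of each spot, linear and not normalized, with empty background columns, and a table of processed intensity per miRNA whose normalization is not given in the sources used here. Total RNA had been ligated to an adapter that captures the dye. Spots were corrected with limma's normexp (offset 50, with no local background to draw on). After dropping controls, log2 values of the 5 arrays were quantile normalized, which removes changes shared by all miRNAs, and the 2 spots were averaged. No test was possible with 1 array per condition. The spot SD comes from log2 ratios of the repeat spots of miRNAs bright on either array and is that of the mean of the 2 spots. Precision is limited by how few arrays there are. The script was tested on simulated data. Named miRNAs are the members, their -3p arms, those with the same seed and, per member, the 3 closest bright miRNAs. The members and lists were chosen with earlier results of these data known. Sequences and coordinates are from RefSeq (GRCm38.p6), in which all 4 members were found. R 4.3.3, limma 3.58.1, Python 3.11.15, pandas 2.3.3, numpy 2.4.6 and matplotlib 3.10.9 were used.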

Additional observations from a re-analysis of the deposited data

How the results depend on the processing

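No paired analysis was possible because the conditions have single arrays. Of 240 member ratios under 15 alternatives, 2 of them chosen after seeing the data, 145 stayed within 1 spot SD of the reported value. Whatever their size, 37 lay on the other side of 1 from the reported ratio, 4 of them for miR-181c at D5, 18 at D7 and 15 with age. The count of members at least 2-fold different at D3 (2 as reported) was 0 with no normalization, scaling to the median, cyclic loess, an offset of 100 or, added later, ratios relative to the bright median. It was 1 with quantile normalization of the pair of arrays and 4 with scaling to the spike-in controls. At D5 (0 as reported) it was 3 with the spike-in controls, 1 with an offset of 16, 2 in the authors' processed table and 2 with the empty spots subtracted, also added later. For aged over young skin (0 as reported) it was 4 with no normalization, the median or the 5S probes and 1 with the spike-in controls. The share of all miRNAs past 2-fold was not counted under these settings, some of which move a whole array. These member counts therefore have no background beside them. The count of members below 1 at D7 (4 as reported) was 0 with no normalization, the median, the spike-in controls or the 5S probes. With age (1 as reported) it was 4 under the same settings, 0 with the 75th percentile, 2 with cyclic loess and 2 relative to the bright median. The log2 ratio at D7, with no normalization, the median, the spike-in controls and the 5S probes, turned to 0.37, 0.43, 0.38 and 0.61 for miR-181b, to 0.082, 0.15, 0.10 and 0.33 for miR-181c, to 0.13, 0.20, 0.15 and 0.38 for miR-181a and to 0.42, 0.49, 0.44 and 0.67 for miR-181d. With age it turned to -1.08, -1.23, -0.76 and -1.07 for miR-181a, to -1.28, -1.43, -0.96 and -1.27 for miR-181b and to -1.23, -1.38, -0.91 and -1.22 for miR-181c, and for miR-181d to 0.25 with the 75th percentile. The cause was not tested. The detection filter left the 8 counts over all miRNAs within 1.5 times. Signal over background is lowest for miR-181d, whose ratios with the empty spots subtracted were 0.2498 at D3 and 0.342 at D5.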
